A study of Mus musculus with 30 samples.

Results

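The PBMC transcriptome of S group, mice inoculated with a suboptimal number of melanoma cells, was compared with that of C group, the negative control group. The comparison took in 10 of the 30 libraries of the series, 5 PBMC libraries of each group, and every gene with enough counts in them. All mice were female C57BL/6 animals, 6 to 8 weeks old when the experiments began. Each mouse of S group received 2000 B16F10 cells under the skin of the right flank and showed no visible tumor at autopsy on day 14. Each mouse of C group received the carrier solution HBSS without cells. B16F10 is an established melanoma line derived from C57BL/6 mice, so the inoculated mice kept their own immune system. Every library was a pool of mice, 25 mice in C group (5 per pool) and 24 in S group (5 per pool and 4 in replicate 2). How many mice of a pool carried a growing tumor cannot be read from these libraries. PBMCs were taken with an isolation kit from the blood that was left after removal of the platelet-rich plasma. Raw counts per gene summed to between 14089426 and 15440504 per library in C group and between 14039342 and 15973449 in S group.

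Blood mononuclear cells are mainly B cells, T cells, NK cells and monocytes, and a tumor elsewhere in the body can alter them through soluble factors or through release of myeloid cells from the bone marrow. Ribosomal protein genes encode the protein part of the ribosome and are among the most strongly expressed genes of these cells. Their spliced mRNAs have been copied back into the mouse genome many times, and such a processed pseudogene or retrogene can be so close to its source gene that short reads of one are counted for the other.

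Few genes differed by more than the spread between pools, and those that passed the strictest threshold were ribosomal. Rpl37rt, Gm10073 and Rps29 fell and Gm3362 and Rpl17-ps3 rose in S group, 5 genes or 0.0330% of those tested with edgeR's quasi-likelihood test and Benjamini-Hochberg adjustment. Rps29 is a ribosomal protein gene of the small subunit, and the other 4 are copies of ribosomal protein genes. At an unadjusted P under 0.05, 400 of 15139 genes were called (2.64%), where evenly spread P values would give 757. This fit took no account of the replicate number, and with it as a block the count was 651. Of the 400, the level in S group was the higher one in 186 (1.23%) and the lower one in 214 (1.41%). This split moved with the processing, with 160 higher and 246 lower under RLE size factors, 148 and 253 without hemoglobin genes, 378 and 273 with the replicate number as a block, and 1157 and 355 without the filter on low counts. In 118 genes (0.779%) no pool of one group lay within the range of the other, 55 of them higher and 63 lower in S group. Of the 252 arrangements of 5 against 5 pools, a share of 0.00794 separates the groups fully, so this count is near the chance share. The median log2 fold change (log2FC, S group minus C group) over all genes tested was 0.01. Levels are given as CPM, counts scaled to a common library total. Of 4290 protein-coding genes with a mean of at least 50 CPM, 4273 had a log2FC under 0.5 in size, with a median standard error (SE) of 0.0808. Of the other 17, 3 had an unadjusted P under 0.05, which were Rps29, Serf2 and Rps27rt.

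**Figure D1:**
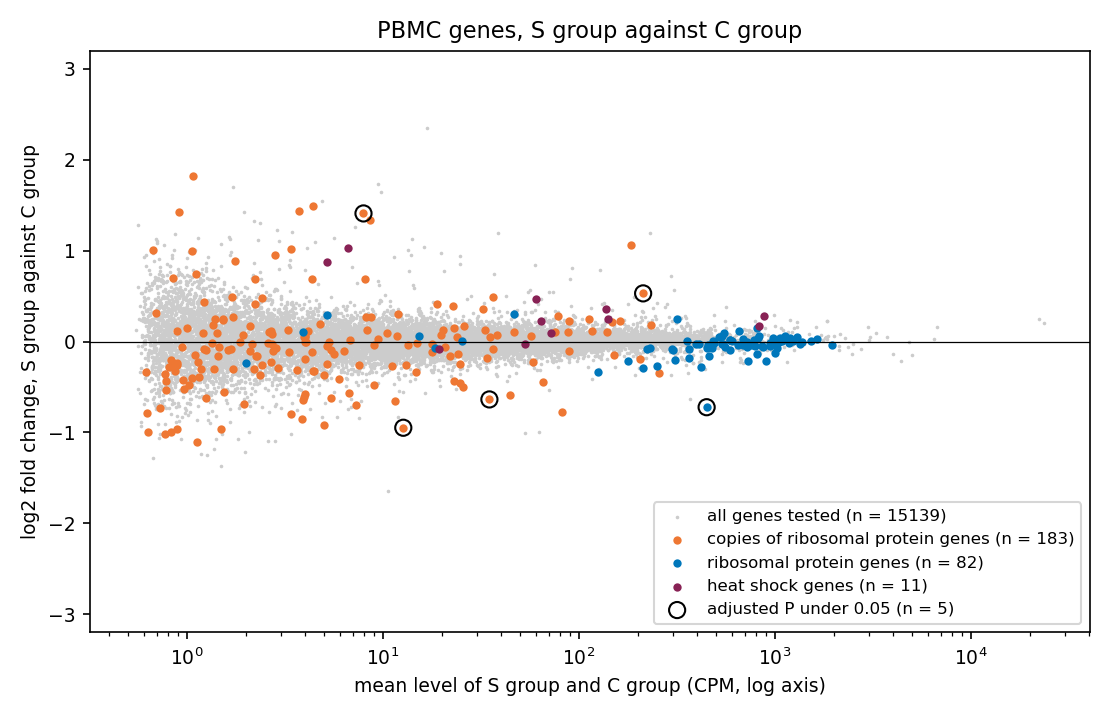
Log2 fold change between S group and C group (vertical axis) by mean level in CPM (horizontal log axis) for the 15139 genes tested. The 5 circled genes had an adjusted P under 0.05, and the 183 copies of ribosomal protein genes spread further from 0 than the 82 ribosomal protein genes.

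No difference between the groups was found in the measures of depth and composition that were tested. Hemoglobin genes took from 3.29% to 9.39% of the counts in C group and from 3.23% to 8.62% in S group. Total count, number of genes with a count, share of the 10 most abundant genes and share of hemoglobin genes had P values between 0.548 and 0.738 in two-sided exact permutation tests over 252 arrangements. With 5 pools per group such tests can miss a difference, so they do not show that the groups are alike. Replicate 3 of S group stood apart with a count on 32900 genes, against 22223 to 22991 in the other 9 libraries. In it, 7565 genes had a count that had none in the other 9, and together they held 0.116% of its counts.

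Coding sequences of called copies and their source genes are shown because the distance between a copy and its source gene sets how well reads of the pair can be told apart. They are taken from GENCODE vM21 transcripts (GRCm38), run 5′ to 3′ and end with the stop codon except where a shorter stretch is named, and positions count from 1 at the first base of the start codon. Capitals mark the bases at which gene and copy differ. Rpl37 (chr15:5116645-5119140, plus strand) and Rpl37rt (chr5:115102923-115110268, minus strand, a transcribed processed pseudogene) differed at 1 of 294 coding bases, G249A, and are alike over the first 248.
Rpl37: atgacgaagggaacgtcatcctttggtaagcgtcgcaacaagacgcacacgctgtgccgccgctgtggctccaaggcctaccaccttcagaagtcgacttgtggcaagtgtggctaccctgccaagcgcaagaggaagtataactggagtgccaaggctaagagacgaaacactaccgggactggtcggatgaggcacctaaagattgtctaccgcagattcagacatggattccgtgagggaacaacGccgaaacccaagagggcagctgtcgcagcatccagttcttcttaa
Rpl37rt: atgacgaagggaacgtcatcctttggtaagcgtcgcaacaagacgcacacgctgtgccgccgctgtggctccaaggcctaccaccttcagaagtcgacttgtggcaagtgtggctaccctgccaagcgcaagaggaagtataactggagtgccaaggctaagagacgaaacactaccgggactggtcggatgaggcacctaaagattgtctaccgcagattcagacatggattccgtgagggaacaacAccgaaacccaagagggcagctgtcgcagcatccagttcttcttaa

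Rpl23a (chr11:78180932-78183584, minus strand) encodes a protein of the large subunit, and Gm3362 (chr15:37943327-37943792, minus strand) is a processed pseudogene. Over 466 coding bases they differed at C142T, G158A, C184A and C194T, within the first 300 bases, which are the ones shown, and the longest run without a difference was 272 bases.
Rpl23a: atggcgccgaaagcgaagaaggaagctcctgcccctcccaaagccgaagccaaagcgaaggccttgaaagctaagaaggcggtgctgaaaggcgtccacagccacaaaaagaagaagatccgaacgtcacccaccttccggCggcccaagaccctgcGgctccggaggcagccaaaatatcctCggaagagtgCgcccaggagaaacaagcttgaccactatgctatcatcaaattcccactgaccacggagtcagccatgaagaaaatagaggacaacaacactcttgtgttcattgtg
Gm3362: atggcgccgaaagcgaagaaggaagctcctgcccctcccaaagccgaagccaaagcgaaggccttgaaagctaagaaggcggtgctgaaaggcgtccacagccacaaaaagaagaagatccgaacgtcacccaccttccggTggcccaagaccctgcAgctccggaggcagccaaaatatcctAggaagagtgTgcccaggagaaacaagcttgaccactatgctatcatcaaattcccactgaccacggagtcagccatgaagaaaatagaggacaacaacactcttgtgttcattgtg

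In a further pair, Rps28 (chr17:33819027-33824562, minus strand), which encodes a protein of the small subunit, and its copy Gm10443 (chr6:86334031-86334240, plus strand), none of the 210 coding bases differed. Reads within such stretches cannot be told apart by their bases, so the levels of copies and of their source genes are uncertain.
Rps28 and Gm10443: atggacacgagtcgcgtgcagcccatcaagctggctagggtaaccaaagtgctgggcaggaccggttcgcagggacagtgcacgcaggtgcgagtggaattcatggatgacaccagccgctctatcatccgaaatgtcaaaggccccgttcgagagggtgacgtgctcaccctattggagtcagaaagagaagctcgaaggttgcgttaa

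Rps29 was at 542, 644, 577, 561 and 465 CPM in C group and 383, 302, 295, 352 and 359 CPM in S group. All 5 pools of S group lay below all 5 pools of C group. Its mean was 558 ± 64.6 CPM in C group and 338 ± 37.9 CPM in S group (SD, n = 5). The log2FC was -0.72 (SE 0.0997, adjusted P = 0.0385 by edgeR's quasi-likelihood test with Benjamini-Hochberg adjustment). With the replicate number as a block, the same edgeR test with Benjamini-Hochberg adjustment gave an adjusted P of 0.13. When 1 library was left out in turn, the log2FC stayed between -0.78 and -0.67 and Rps29 was called in 1 of 10 fits. Its copy Gm14303 had a log2FC of -0.45 (SE 0.101, unadjusted P = 0.000802).

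Rpl37rt was at 39.8, 47.7, 42.1, 41.5 and 41.3 CPM in C group and 27.9, 26.4, 24.9, 28 and 29.3 CPM in S group. The groups did not overlap, and the pools of S group lay close together. Its mean was 42.5 ± 3.05 CPM in C group and 27.3 ± 1.69 CPM in S group (SD, n = 5). The log2FC was -0.64 (SE 0.0707, adjusted P = 0.0177 by edgeR's quasi-likelihood test with Benjamini-Hochberg adjustment), and it was called in 5 of the 10 fits that left out a library. Its source gene Rpl37 was at 389 ± 27 CPM in C group and 342 ± 20.9 CPM in S group, with a log2FC of -0.18 (SE 0.069, unadjusted P = 0.0203).

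Gm10073, annotated as protein coding, was at 16.6, 19.5, 15.5, 15.8 and 16.2 CPM in C group and 8.12, 8.68, 7.06, 10.5 and 8.92 CPM in S group, again without overlap. It fell to a mean of 8.66 ± 1.26 CPM from 16.7 ± 1.61 CPM (SD, n = 5). The log2FC was -0.95 (SE 0.116, adjusted P = 0.0242 by edgeR's quasi-likelihood test with Benjamini-Hochberg adjustment), and 2 of the 10 fits that left out a library called it. Its source gene Rplp1, which encodes a protein of the ribosomal stalk, was at 1170 ± 93.7 CPM in C group and 1200 ± 129 CPM in S group, with a log2FC of 0.04 (SE 0.0877, unadjusted P = 0.675).

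Gm3362 went the other way, with 4.2, 3.98, 4.31, 4.43 and 4.77 CPM in C group and 14, 15, 12.6, 7.29 and 8.8 CPM in S group. Replicates 4 and 5 of S group lay nearer to C group than the other 3 pools, and the groups did not overlap. The log2FC was 1.41 (SE 0.194, adjusted P = 0.0385 by edgeR's quasi-likelihood test with Benjamini-Hochberg adjustment). With the replicate block, the same edgeR test with Benjamini-Hochberg adjustment gave an adjusted P of 0.101, limma's voom with quality weights gave 0.0943, and 1 of the 10 fits that left out a library called it. Rpl23a, its source gene, had a log2FC of 0.25 (SE 0.101, unadjusted P = 0.0304).

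Rpl17-ps3 is a processed pseudogene of Rpl17, which encodes a protein of the large subunit. It was at 183, 184, 154, 183 and 165 CPM in C group and 281, 256, 248, 235 and 233 CPM in S group, and the pools of S group were all higher. The log2FC was 0.53 (SE 0.0745, adjusted P = 0.0385 by edgeR's quasi-likelihood test with Benjamini-Hochberg adjustment). Without hemoglobin genes the adjusted P of the same test was 0.0551, and 1 of the 10 fits that left out a library called it. Rpl17 itself had a log2FC of -0.03 (SE 0.117, unadjusted P = 0.829). Another of its copies, Rpl17-ps10, had one of -0.35 (SE 0.132, unadjusted P = 0.022), so copies of the same gene lay on both sides of 0.

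**Figure D2:**
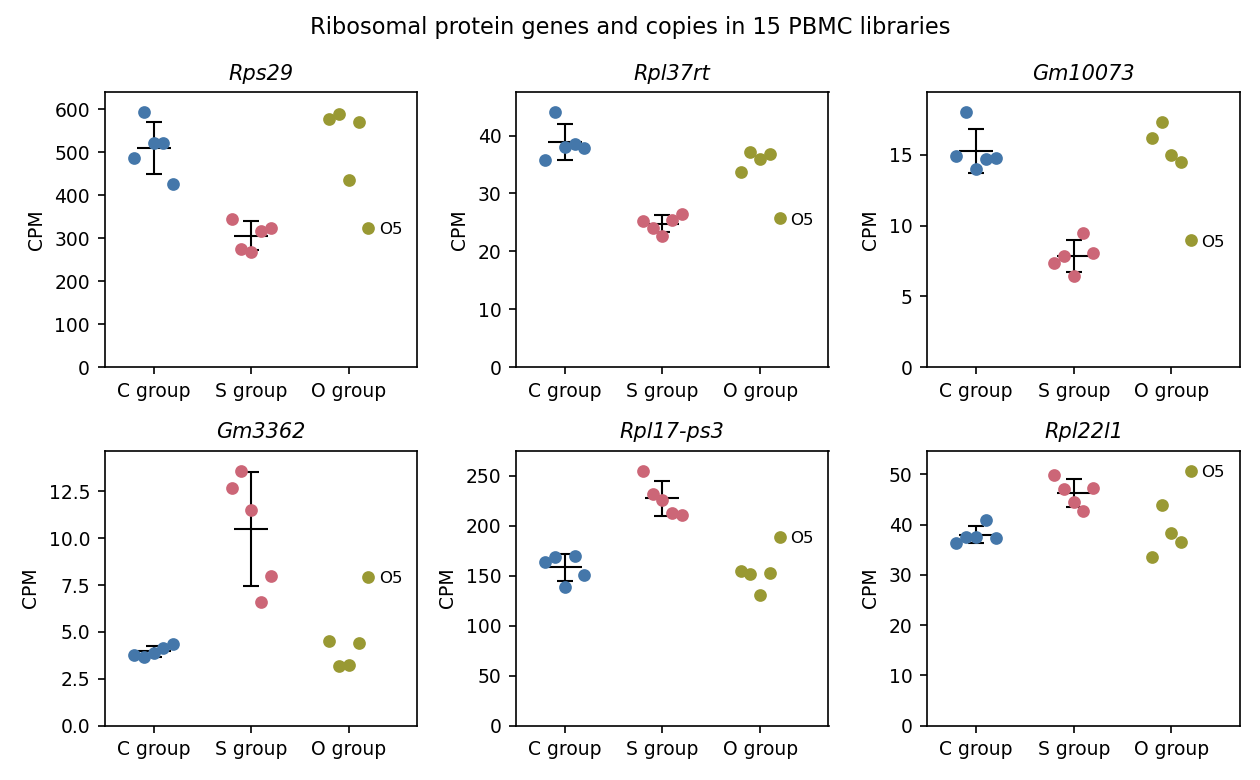
CPM of 6 genes in the 15 PBMC libraries of C group, S group and O group, normalized together. Points are pools, and bars give the mean and SD of C group and S group. Pools of C group and S group do not overlap in any of the 6, and replicate 5 of O group (O5) lies apart from the other O group pools.

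The next genes in rank were of the same kind. Gm10443, the copy of Rps28, was at 100, 120, 107, 103 and 89.7 CPM in C group and 57.5, 49.2, 53.3, 69.5 and 73.7 CPM in S group, with a log2FC of -0.78 (SE 0.116, adjusted P = 0.0551 by edgeR's quasi-likelihood test with Benjamini-Hochberg adjustment). Gm17828, a copy of Rpl7a, had a log2FC of 1.5 (SE 0.226) and Gm5805, a copy of Rps14, one of 1.34 (SE 0.205). With the replicate block, edgeR's test with Benjamini-Hochberg adjustment also called Gm5805 (adjusted P = 0.0482). Among the 10 genes of smallest P in each direction without overlap, Ndufb1-ps, Rpl22l1, H3f3c and Rps29 were the 4 that are not copies of ribosomal protein genes. Rpl22l1, a paralog of the large subunit gene Rpl22, was at 40.5 to 44 CPM in C group and 47.3 to 55.1 CPM in S group, with a log2FC of 0.30 (SE 0.0601, unadjusted P = 0.000323). H3f3c, a copy of the histone gene H3f3a, had one of -0.65 (SE 0.14, unadjusted P = 0.000581).

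Processed pseudogenes held more called genes for their number than protein-coding and long non-coding genes, the other types counted. At an unadjusted P under 0.05, 111 of 683 were called (16.3%), 38 of them higher and 73 lower. Of 12211 protein-coding genes it was 222 (1.82%), 118 higher and 104 lower, and of 1279 long non-coding genes 40 (3.13%). For protein-coding genes the direction of the split moved with the scaling, with 96 higher and 126 lower under RLE size factors. With the replicate block 277 protein-coding genes were higher and 144 lower. Of 686 processed pseudogenes and named copies tested, 586 were matched to a protein-coding source gene. The 183 copies of ribosomal protein genes held 57 called genes (31.1%), 23 higher and 34 lower, and the 403 copies of other genes 51 (12.7%), 15 higher and 36 lower. Processed pseudogenes took from 0.590% to 0.661% of all counts in C group and from 0.586% to 0.649% in S group, so both groups covered nearly the same range.

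Counts of copies were then added to those of their source gene, an alternative chosen after the data were seen. Of the 14561 features of that table, 286 had an unadjusted P under 0.05, and 0 passed the adjusted threshold in edgeR's test. The summed Rps29 family had a log2FC of -0.72 (SE 0.0968). Of 69 ribosomal protein families with a copy tested, 37 held a copy with an unadjusted P under 0.05, and 7 held copies called in both directions. After summing, Rps29, Rps28, Rpl38, Rpl37 and Rpl23 were lower and Rpl22l1 and Rpl23a higher at an unadjusted P under 0.05. The log2FC was -0.44 (SE 0.0954) for Rps28 with 3 copies, -0.34 (SE 0.081) for Rpl38 with 2 copies and -0.23 (SE 0.0674) for Rpl37 with 1 copy.

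In other families the sum stayed near 0 although a copy was called. It was 0.02 (SE 0.087) for Rplp1, 0.00 (SE 0.0577) for Rpl17 and 0.04 (SE 0.0834) for Rps14. Copies of Rplp1 held 1.78% of the family counts for C group against 1.14% for S group. For Rps14 it was 0.58% against 1.22%, so both sums are set by the source gene, and for Rpl17 49.5% against 50.7%. Of 37 families with a called copy, 30 had a summed log2FC within 0.2 of 0, and in 20 of the 30 the copies held under 10% of the counts in both groups. The share of a family's counts that fell on copies differed. For Rpl37 it was 9.86% ± 0.538 of C group counts against 7.39% ± 0.259 for S group (SD, n = 5), without overlap. For Rps28 it was 34.3% ± 1.05 and 28.1% ± 4.29, and for Rps2 with 9 copies 8.48% ± 0.395 and 9.99% ± 0.403, in the same order and also without overlap. The groups did not overlap in 13 of the 69 ribosomal protein families (18.8%), with a lower share in S group in 10 and a higher one in 3. They did not overlap in 12 of the 314 families of other genes (3.82%), 10 lower and 2 higher.

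**Figure D3:**
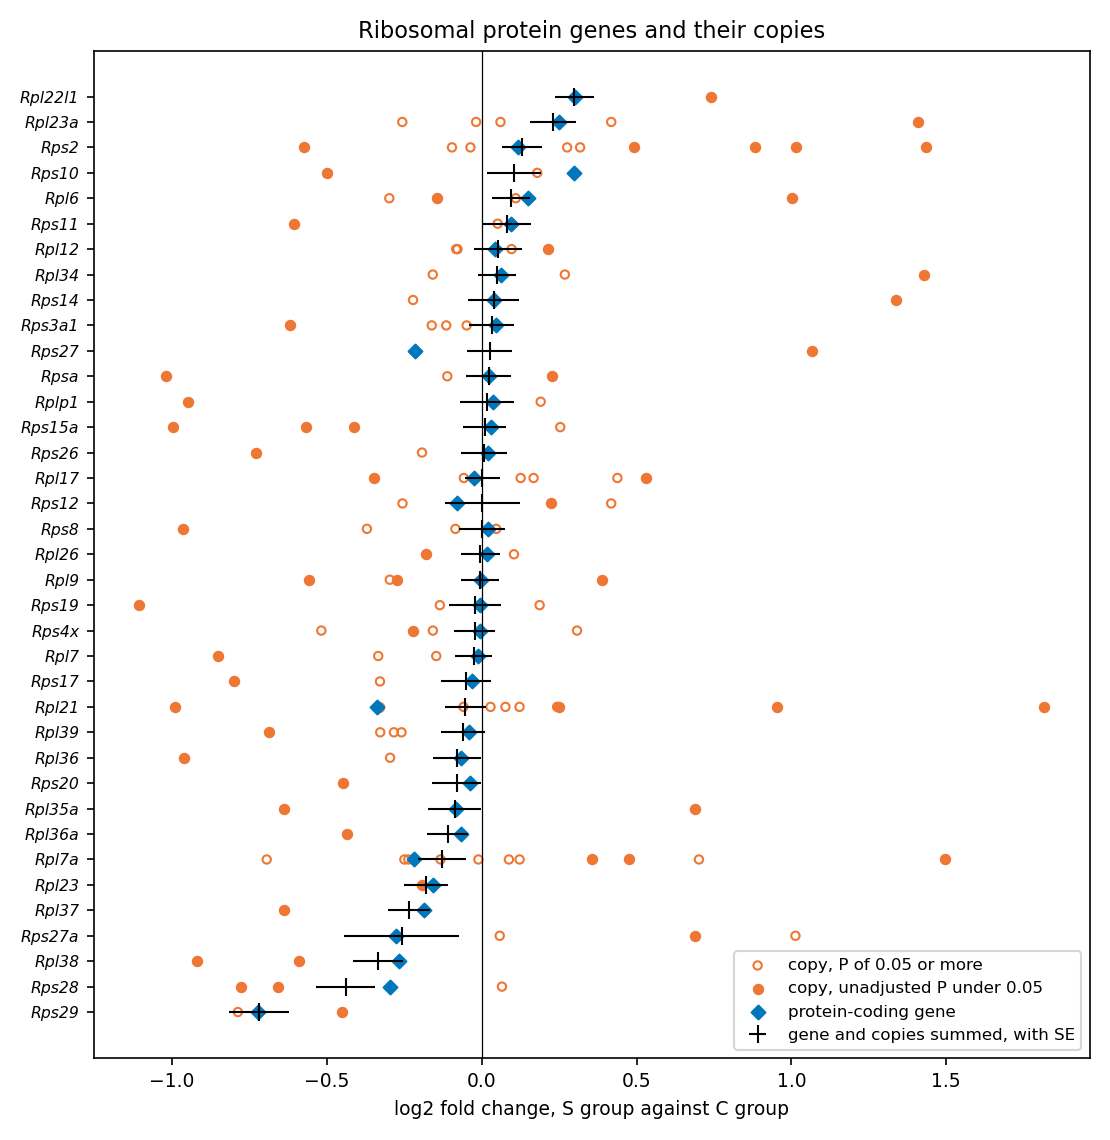
Log2 fold change between S group and C group for the 37 ribosomal protein families with a called copy. Circles are copies (filled where the unadjusted P was under 0.05), diamonds are source genes, and black ticks with lines are gene and copies summed, with the SE. Copies reach from -1.11 to 1.82, while 30 of the 37 sums lie within 0.2 of 0.

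Of the 82 cytosolic ribosomal protein genes themselves, 9 were lower and 3 higher at an unadjusted P under 0.05, against 1.41% lower and 1.23% higher over all genes tested, with a median log2FC of -0.02. Rpl38 of the large subunit was at 277, 304, 270, 274 and 243 CPM in C group and 261, 213, 207, 224 and 232 CPM in S group, where replicate 1 of S group overlapped with C group (log2FC -0.27, SE 0.0795, unadjusted P = 0.00567). Rps23, part of the decoding center, was at 880 to 1070 CPM in C group and 785 to 928 CPM in S group (log2FC -0.22, SE 0.0731, unadjusted P = 0.0116). Besides Rps29, the other lower genes were Rps28, Rpl37, Rps27, Rpl21, Rps21 and Rpl23, with log2FC between -0.34 for Rpl21 and -0.16 for Rpl23. Rpl22l1, Rpl23a and Rpl6 were the higher ones. Of these, Rps28, Rps27, Rpl21, Rps21, Rpl23 and Rpl6 were chosen for naming with their values in view. The 9 lower genes became 16 without replicate 1 of S group, 5 without replicate 3, 4 without replicate 2 and 3 without replicate 2 of C group.

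The lower genes were mostly short ones. Of the ribosomal protein genes with a coding length under 300 bases (stop codon not counted), 6 of 10 were lower at an unadjusted P under 0.05 and none higher, against 3 lower and 3 higher of 72 longer ones. The limit of 300 bases was chosen after the values were seen. The median log2FC was -0.19 for the short and -0.01 for the longer genes, and the 6 lower short genes became 2 without replicate 2 of C group and 3 without replicate 2 of S group. Nuclear oxidative phosphorylation genes encode subunits of the respiratory chain and of ATP synthase, and 5 of 20 short ones were lower and 0 of 58 longer ones were called. Of the longer ones, 2 were higher with the replicate block and 6 lower without replicate 1 of S group. Across genes of the same 10 libraries, Spearman's rho of coding length and log2FC was 0.360 over 82 ribosomal protein genes and 0.466 over 78 oxidative phosphorylation genes. Over 11897 other protein-coding genes it was 0.00872, with 6 of 211 short genes (2.84%) lower and 2 higher, and 82 of 11686 longer ones (0.702%) lower and 108 higher.

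**Figure D4:**
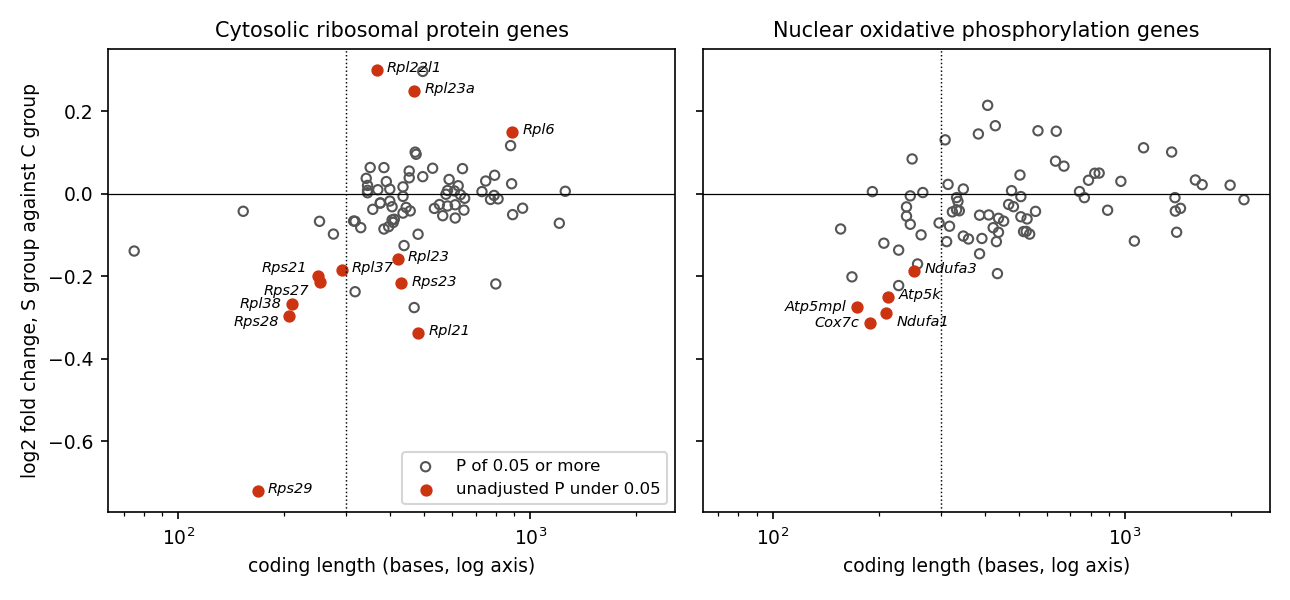
Log2 fold change between S group and C group by coding length in bases (log axis, stop codon not counted) for 82 ribosomal protein genes (left) and 78 nuclear oxidative phosphorylation genes (right). Filled points have an unadjusted P under 0.05, and the dotted line marks 300 bases. Left of the line lie 6 of the 9 lower ribosomal protein genes and the 5 called oxidative phosphorylation genes.

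Atp5mpl, a small protein of ATP synthase, was at 38.7 to 43.7 CPM in C group and 30.7 to 39.3 CPM in S group (log2FC -0.28, SE 0.0759, unadjusted P = 0.0035). Cox7c of cytochrome c oxidase was at 71.6, 72.4, 58.7, 67.8 and 68.5 CPM in C group and 65.1, 51.8, 50.8, 46.8 and 58.3 CPM in S group, where replicate 1 of S group overlapped with C group (log2FC -0.31, SE 0.0935, unadjusted P = 0.00581). Ndufa1 of complex I had a log2FC of -0.29 (SE 0.106) and Atp5k of ATP synthase one of -0.25 (SE 0.105). Ndufa3 of complex I, named after its value was seen, was the fifth. The 5 lower genes became 17 without replicate 1 of S group, 10 without replicate 3 of C group, 13 under voom with quality weights and 0 with O group in the fit. They became 3 without replicate 1 or 4 of C group or replicate 2, 3 or 4 of S group. Of 12 mitochondrially encoded genes tested, 0 were called, and 1 was higher and 2 were lower without replicate 1 of S group.

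Heat shock genes encode chaperones that keep proteins folded and are induced by heat, handling and other stress. Of 11 tested, 6 were higher in S group at an unadjusted P under 0.05 and 0 lower, with a median log2FC of 0.25, against 1.23% higher over all genes tested, and 0 passed the adjusted threshold in edgeR's test. Hspa1b, an inducible Hsp70, was at 5.81, 2.94, 5.35, 2.67 and 5.02 CPM in C group and 13.8, 7.83, 5.2, 11.8 and 5.81 CPM in S group (log2FC 1.03, SE 0.309, unadjusted P = 0.00597). Replicates 3 and 5 of S group lay within the range of C group. Dnaja1, a partner of Hsp70, was at 108, 127, 137, 103 and 129 CPM in C group and 153, 180, 135, 175 and 131 CPM in S group (log2FC 0.36, SE 0.109, unadjusted P = 0.00691).

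Hspa8, the constitutive Hsp70, was at 870, 826, 747, 707 and 826 CPM in C group and 1220, 999, 852, 964 and 810 CPM in S group (log2FC 0.28, SE 0.109, unadjusted P = 0.0229). Hsp90aa1, the inducible Hsp90, had a log2FC of 0.25 (SE 0.0859, unadjusted P = 0.0132). Hsph1 and Hspa1a, named after their values were seen, were the others, and Hspa1a and Hspa1b are near-identical neighbors whose counts are uncertain. The groups overlapped in each of the 11 genes. Replicates 1, 2, 3 and 4 of S group had 10, 11, 8 and 9 of the 11 genes above the mean of C group, and replicate 5 had 5. The 6 higher genes became 3 without replicate 1 of S group or replicate 4 of C group, 4 without replicate 4 of S group or replicate 3 of C group, 8 with the replicate block and 2 with O group in the fit.

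**Figure D5:**
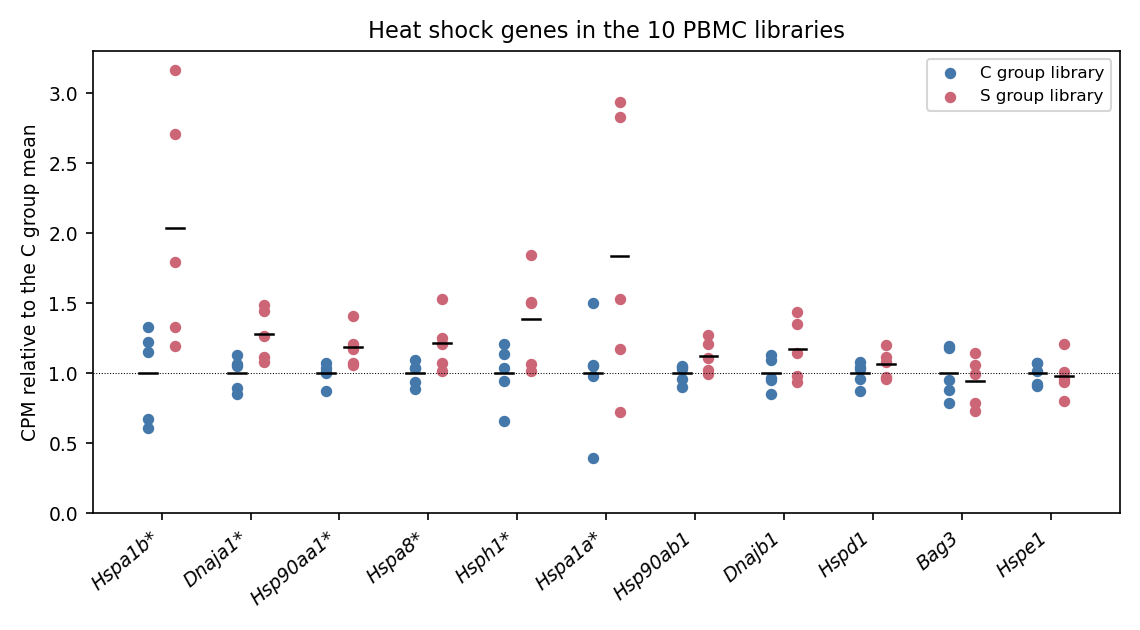
Level of 11 heat shock genes in each of the 10 PBMC libraries, as CPM divided by the mean of the 5 C group pools. Short lines are group means, and an asterisk marks an unadjusted P under 0.05. Hspa1b and Hspa1a have the widest spread between S group pools.

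Of 23 immediate early genes, which are transcribed within minutes of stimulation, 2 were higher in S group, where 1.23% of all genes tested were. Jund, a subunit of AP-1, was at 158, 165, 202, 181 and 156 CPM in C group and 198, 206, 238, 225 and 192 CPM in S group (log2FC 0.30, SE 0.0881, unadjusted P = 0.00566). In each numbered pair of pools the S group pool was the higher one. Ier5, a regulator of the heat shock response, had a log2FC of 0.26 (SE 0.0859, unadjusted P = 0.0115). With O group in the fit 1 of the 23 was called. With the replicate block 10 of the 23 genes were higher and 0 lower at an unadjusted P under 0.05, and 378 of all 15139 genes were higher and 273 lower.

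The lineage markers of blood mononuclear cells showed no difference that passed the adjusted threshold. In bulk RNA, fewer cells of a type and less RNA per cell cannot be told apart. At an unadjusted P under 0.05, 2.64% of all genes tested were called and 1.23% were called higher. Of 12 B cell markers, Fcmr, the Fc receptor for IgM, was the 1 with an unadjusted P under 0.05 (log2FC 0.24, SE 0.103), and the median of the list was 0.12. None was called with O group in the fit or without replicate 2, 4 or 5 of C group or replicate 1, 2 or 4 of S group, and 2 were called without replicate 3 of either group. The 14 T cell markers and the 9 NK cell markers had medians of 0.02 and 0.19 with 0 called. Of the NK cell markers, 2 were higher with the replicate block, 3 without replicate 5 of C group and 2 without replicate 2, and 1 T cell marker was higher without the latter. Of 11 cytotoxic effector genes, Gzmk, a granzyme, was higher, at 5.5 to 9.47 CPM in C group and 8.18 to 10.6 CPM in S group (log2FC 0.37, SE 0.154). None of the 11 was called with O group in the fit or without replicate 1, 3 or 4 of C group or replicate 3, 4 or 5 of S group. The number of higher genes was 2 with the replicate block, 2 without replicate 2 of C group and 3 without replicate 5. The 14 monocyte and macrophage markers had a median of -0.09 with 0 called.

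None of 22 type I interferon response genes was called, with a median log2FC of 0.10, and without replicate 3 of S group 2 were lower and the median was -0.08. Likewise 0 were called of 23 cytokines and chemokines, 35 of their receptors, 19 adhesion molecules, 23 checkpoint and costimulatory genes and 18 tumor-associated myeloid genes. With the replicate block 3 cytokines and chemokines, 2 interferon response genes and 1 receptor were higher. For comparison with the calls in the lists that follow, 2.64% of all genes tested were called and 1.23% were called higher. Psme2, an activator of the proteasome, was the 1 called of 21 genes of MHC class I and antigen processing (log2FC 0.25, SE 0.107). None of the 21 was called without hemoglobin genes, without replicate 2, 3 or 5 of C group or without replicate 1 or 3 of S group, while 2 were higher without replicate 2 of S group and 3 with the replicate block. H2-Oa, which modulates peptide loading in B cells, was the 1 called of 11 MHC class II genes, at 46.3, 46.2, 57.3, 44.6 and 43.2 CPM in C group and 57.6, 63.8, 51.7, 63 and 56.2 CPM in S group (log2FC 0.30, SE 0.0887). Replicate 3 of C group lay within the range of S group. Without it, 4 MHC class II genes were higher, and with O group in the fit none was called. Among 17 p53 target genes the 1 called was Tnfrsf10b, a death receptor (log2FC 0.45, SE 0.194). None of the 17 was called with O group in the fit or without replicate 1, 4 or 5 of C group or replicate 2 or 3 of S group, and 3 were higher with the replicate block. Among 29 mitotic genes Tyms and Aurka were higher (log2FC 0.42 and 0.34), where 1.23% of all genes tested were. None of the 29 was called with the replicate block, with DESeq2, with O group in the fit, without the filter, with copies summed, without hemoglobin genes, without replicate 5 of C group and without replicate 1, 3 or 5 of S group.

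Markers of other cells that a PBMC preparation can hold varied widely between pools. The 13 erythroid markers summed to 33340 to 105900 CPM in C group and 34850 to 96950 CPM in S group. The 12 platelet markers summed to 994 to 5607 CPM and 2442 to 3372 CPM, and the 12 neutrophil markers to 461 to 2717 CPM and 488 to 4253 CPM, in the same order. None of these markers was called. Without replicate 3 of C group, 6 erythroid markers were higher and 6 platelet markers lower in S group, and with the replicate block 3 erythroid markers and 1 neutrophil marker were higher. Without replicate 3 of S group 1 neutrophil marker was lower, and without the filter on low counts 1 of 14 was higher and 3 were lower.

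Transcripts of the tumor itself were not detectable as a difference. Of 11 melanocyte and melanoma markers, 8 had between 0 and 7 counts in each library, and Mlana, which encodes a melanosome protein, had 0 in all 10. Replicate 3 of S group had counts of Dct (3), Oca2 (5), Slc45a2 (4), Sox10 (2), Tyr (1) and Tyrp1 (1). In the other pools of S group these had 0, except Sox10 with 1 in replicate 2. The highest count, 7 of Dct, was in replicate 5 of C group. Pmel had 489 to 637 counts in C group and 497 to 695 in S group. Over all genes tested, 1.41% were lower at an unadjusted P under 0.05. Of the 3 markers tested, Gpnmb was the 1 called and lay lower in S group (log2FC -1.21, SE 0.511, unadjusted P = 0.0358). It was at 1.92, 1.7, 1.34, 7.62 and 1.29 CPM in C group, where replicate 4 stood far above the rest, and at 0.783 to 1.86 CPM in S group, and it was not called without that library or without replicate 1, 2, 4 or 5 of S group. Neither did voom call it, and its unadjusted P was 0.0519 with the replicate block. Of 13 markers of skin, connective tissue, muscle and liver, 2 were tested, and Krt10 was lower, at 0.644 to 1.11 CPM in C group and 0.372 to 0.629 CPM in S group (log2FC -0.72, SE 0.262, unadjusted P = 0.0176), though it was not called with DESeq2, without the filter or without replicate 2 of C group.

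Among the 10 genes of smallest P with a mean of at least 50 CPM, Serf2, Rbm38 and H2-Oa were not ribosomal. Serf2 was at 52, 64.2, 50.2, 68 and 64.7 CPM in C group and 109, 92.8, 90.3, 71.7 and 73.2 CPM in S group, without overlap (log2FC 0.55, SE 0.128, unadjusted P = 0.00107). Rbm38, an RNA-binding protein, was at 151 to 162 CPM in C group and 163 to 203 CPM in S group (log2FC 0.24, SE 0.0705, unadjusted P = 0.00541). Rps27rt, a copy of Rps27, was at 98.3, 105, 105, 145 and 144 CPM in C group and 447, 255, 102, 259 and 186 CPM in S group, with replicate 3 of S group within the range of C group (log2FC 1.06, SE 0.302, unadjusted P = 0.0042). Rps27 had a log2FC of -0.21 (SE 0.0852), and summed with its copy one of 0.03 (SE 0.0728).

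Of the gene panel that this study drew from its platelet libraries, only the genes named in its main text were set together here, which leaves out other members. These 17 genes had a median log2FC of 0.07 in PBMCs, and 0 had an unadjusted P under 0.05, against 1 without replicate 2 and 2 without replicate 5 of C group. Klrg1, a receptor of effector NK and T cells, had a log2FC of 0.34 (SE 0.192, unadjusted P = 0.103), and with the replicate block its unadjusted P was 0.0461. Tap1, the peptide transporter of MHC class I, had a log2FC of 0.11 (SE 0.0779) and Prf1, which encodes perforin, one of 0.19 (SE 0.109). S100a9, a calcium-binding protein of neutrophils and monocytes, had a log2FC of 0.57 (SE 0.831), with 71.3 to 707 CPM in C group and 76.8 to 1280 CPM in S group.

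The PBMC libraries of O group, mice given 100000 B16F10 cells, were set beside the 20 genes that were called or led the list of genes without overlap. Normalized with the other 10 libraries, replicates 1 to 4 of O group were on the side of S group for 3, 3, 2 and 2 of the 20 genes, and replicate 5 for 18. Rps29 was at 577, 590, 435 and 570 CPM in replicates 1 to 4 and at 324 CPM in replicate 5. Gm10073 was at 16.2, 17.3, 15 and 14.5 CPM and at 8.96 CPM, and Gm3362 at 4.53, 3.19, 3.23 and 4.41 CPM and at 7.94 CPM, in the same order. In these 3 genes 4 pools of O group lay near C group and 1 near S group. Hemoglobin genes took 6.52% of the counts in replicate 5 and from 15.1% to 24.5% in the other 4. The labels give no batch or date, and a part of library handling in the difference between S group and C group was not tested. With O group in the fit, 0 genes passed the adjusted threshold in edgeR's test and 317 had an unadjusted P under 0.05.

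The response of PBMCs was set beside that of platelets in 1 fit with 10 platelet libraries of the same groups. For the difference between both responses, edgeR's test gave an adjusted P under 0.05 for 0 of 16094 genes (0.00%). An unadjusted P under 0.05 was found for 1094 of the 16094 genes, and DESeq2 gave 35 genes with an adjusted P under 0.05. The responses of the tissues are thus not shown to be alike. The log2FC of Rps29 was -0.73 (SE 0.162) in PBMCs and -0.52 (SE 0.161) in platelets. It was 1.40 (SE 0.255) in PBMCs and -0.07 (SE 0.232) in platelets for Gm3362, and -0.96 (SE 0.21) in PBMCs and -0.06 (SE 0.221) in platelets for Gm10073. For Hspa1b it was 1.03 (SE 0.341) in PBMCs and 1.95 (SE 0.374) in platelets. The unadjusted P of the difference was 0.359 for Rps29, 0.000322 for Gm3362, 0.00724 for Gm10073 and 0.0806 for Hspa1b.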

How the data were processed

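RNA of PBMC pools was sequenced. The authors deposited raw count values per Ensembl gene, without normalization, for 54532 genes. According to the submitters' processing notes, HISAT2 2.0.5 and featureCounts 1.5.0-p3 made them with the build mm9, while 54495 of the deposited gene IDs are in GENCODE vM21 (GRCm38), whose positions are printed here. How reads with several equal alignments were counted is not given in the sources used here. Groups were read from the sample titles.

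Genes that passed filterByExpr (15139) were fitted with edgeR 4.0.16 in R 4.3.3 (TMM normalization, quasi-likelihood F test, two-sided, Benjamini-Hochberg adjustment over all genes tested). The standard error is the log2 fold change divided by the square root of F. CPM are scaled with TMM factors, which ranged from 0.956 to 1.05. Counts are given at a threshold of 0.05 on the adjusted and on the unadjusted P. Pools of the same number in S group and C group deviated together from their group means (r from 0.208 to 0.514 in the 5 pairs, each S group pool closest to its own number), although the labels state no pairing, and blocked values are given where they change a call. No 2 libraries of a group agreed within counting noise (chi-square per degree of freedom from 10.37 to 68.33).

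Copies were matched to source genes with blastn on GENCODE transcripts (at least 150 aligned bases, at least 90% identity). The tests were tested on simulated counts. Alternatives were DESeq2 1.42.0, limma 3.58.1 (voom with quality weights), no filter on low counts, the block, size factors by RLE, all 3 PBMC groups in 1 fit, removal of hemoglobin genes, each library left out in turn, and copies summed. Genes were named by rank of P within the table, within abundant genes, within 34 gene lists and among genes without overlap, besides the platelet panel genes named in the study's main text and the source genes and copies of called genes. The comparison, the lists and the tests were chosen with earlier results of these data known. Some items are not reported here.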

Additional observations from a re-analysis of the deposited data

Results flagged for a closer look

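Of 64 groups of 5 pools checked, 5 had a library far from the other 4 by Dixon's criterion, and chance gives about 1 in 20. Replicate 3 of C group had the lowest total count, 14089426, against 15174763 to 15440504 in the other pools of C group. Replicate 3 of S group had a count on 32900 genes, against 22223 to 22991. Replicate 2 of C group was at 47.7 CPM of Rpl37rt (the others 39.8 to 42.1) and at 19.5 CPM of Gm10073 (the others 15.5 to 16.6). Replicate 3 of C group was at 57.3 CPM of H2-Oa, above 43.2 to 46.3 in the others and within the range of S group. For Rpl37rt and Gm10073 the pool that stands apart lies on the side away from S group.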

How the results depend on the processing

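The 400 genes with an unadjusted P under 0.05 became 1512 without the filter on low counts, 657 under voom with quality weights and 651 with the replicate block, and 327 to 603 without one library (603 without replicate 3 of C group). The 5 adjusted calls of edgeR became 25 with DESeq2, 12 without the filter, 0 with O group in the fit, 0 with copies summed and 0 to 7 without one library. They became 0 without replicate 2 or 4 of C group or replicate 2, 3 or 5 of S group, 1 without replicate 1 of either group and 2 without replicate 3 or 5 of C group. DESeq2, RLE factors and the fit without the filter kept the same 5 genes, voom all but Gm3362, the fit without hemoglobin genes all but Rpl17-ps3, and the replicate block all but Rps29 and Gm3362. For the tissue difference, DESeq2 gave 35 genes, the fit without the filter 2, and fits without one library 0 to 1 (1 without replicate 2 of platelet S group).

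The log2 fold changes that follow turned their sign. Cd4 and Tlr9 were at -0.00518 and -0.00938 with DESeq2, -0.0051 and -0.0117 without the filter, -0.00519 and -0.00943 with RLE factors, -0.00704 and -0.0097 with O group in the fit and -0.00903 and -0.0135 without hemoglobin genes. Under voom Cd4 was at -0.0486, Ly6e at -0.00944 and Tnfrsf1b at 0.011. With copies summed, which gives each copy the value of its family, Gm10073 was at 0.0179, Gm17828 at -0.128, Rpl21-ps10 at -0.0522, H3f3c at 0.137, Gm10335 and Gm3940 at 0.23, and Rpl17, Rpl17-ps9 and Rpl17-ps10 at 0.00261. Without one library, the lowest and highest values were -0.0621 and 0.056 for Cd4, -0.293 and 0.297 for Cdkn1a, -0.666 and 0.32 for Clca3a1, -0.142 and 0.156 for Gm10335, -0.0116 and 0.301 for Gm20612, -0.522 and 0.193 for Gm3940, -0.0157 and 0.445 for Ifng, -0.021 and 0.0593 for Ly6e, -0.116 and 0.0297 for Rpl17, -0.257 and 0.131 for Rpl17-ps9, -0.00384 and 0.115 for Rpl23a-ps3, -0.0392 and 0.0812 for Rplp1, -0.872 and 1.48 for S100a9, -0.0587 and 0.117 for Tlr9, and -0.103 and 0.0222 for Tnfrsf1b. Causes were not tested.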
